A study of Mus musculus with 30 samples.

Results

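The 9 genes described here encode the core of the MHC class II route of antigen presentation. They were taken by symbol from the 36528 gene identifiers counted in every library: H2-Aa, H2-Ab1, H2-Eb1, Cd74, Ciita, H2-DMa, H2-DMb1, H2-Oa and H2-Ob. All 9 were found, and their levels were followed in 30 RNA libraries of sorted mouse brain cells. The libraries came from 11.5 month old mice that were either PS2APP transgenic or non-transgenic (non-Tg) littermates. Cells were sorted as Cd11b+ myeloid cells, Gfap+ astrocytes or NeuN+ neurons, giving 6 groups of 5 libraries. The PS2APP strain expresses human presenilin 2 and human amyloid precursor protein (APP) from transgenes, and amyloid plaques build up with age. The labels name neither the promoter of the transgenes nor which libraries share an animal. Each p-value is therefore set against the spread from library to library, which may be technical in part.

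MHC class II molecules are pairs of an alpha and a beta chain that carry peptides from engulfed proteins to the cell surface, where CD4+ T cells read them. Cd74, the invariant chain, fills the peptide groove while the pair travels to endosomes. H2-DM then removes the last piece of Cd74 and helps a peptide to bind, and H2-DO restrains H2-DM. Ciita is the transactivator that turns these genes on after interferon gamma, by binding factors already seated on their promoters. In the brain, border macrophages and dendritic cells carry class II in the healthy state, while most resting microglia carry little, and a subset of microglia near plaques is known to switch it on.

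Of the 9 genes, 7 lie together on chromosome 17, in the mouse major histocompatibility complex. In the GRCm38.p6 RefSeq annotation these are H2-Oa at chr17:34092379-34095234, H2-DMa at chr17:34119693-34139101, H2-DMb1 at chr17:34153191-34160229 and H2-Ob at chr17:34238905-34245908. The chains that hold the peptide follow, H2-Ab1 at chr17:34263227-34269418, H2-Aa at chr17:34282744-34287823 and H2-Eb1 at chr17:34305867-34316674.

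Factors that Ciita binds sit on an X box and a Y box just before the start of each class II gene. In 5 of the 6 class II genes with an entry in the RefSeq promoter table, the 150 bases before a listed start held GNAAC, the core of the X box, 28 to 31 bases before TGATTGG, the core of the Y box. These windows are shown because they share this arrangement. They are written 5′ to 3′ on the strand of the gene, with both cores in capitals, and are credited to RefSeq GRCm38.p6.
H2-Aa (chr17:34287824-34287973, minus strand): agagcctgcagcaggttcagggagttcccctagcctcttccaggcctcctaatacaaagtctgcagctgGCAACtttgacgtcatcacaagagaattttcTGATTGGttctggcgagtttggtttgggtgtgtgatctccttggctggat
H2-Eb1 (chr17:34305717-34305866, plus strand): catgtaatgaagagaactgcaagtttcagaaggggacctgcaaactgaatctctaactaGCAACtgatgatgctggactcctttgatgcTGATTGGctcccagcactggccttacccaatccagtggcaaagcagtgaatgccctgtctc
H2-DMb1 (chr17:34153041-34153190, plus strand): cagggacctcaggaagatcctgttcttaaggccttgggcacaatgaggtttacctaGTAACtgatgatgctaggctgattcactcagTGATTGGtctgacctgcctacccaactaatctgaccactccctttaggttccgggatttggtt
H2-Oa (chr17:34092229-34092378, plus strand): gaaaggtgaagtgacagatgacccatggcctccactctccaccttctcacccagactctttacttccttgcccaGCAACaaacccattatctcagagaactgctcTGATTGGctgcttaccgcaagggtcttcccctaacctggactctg
H2-Ob (chr17:34238755-34238904, plus strand): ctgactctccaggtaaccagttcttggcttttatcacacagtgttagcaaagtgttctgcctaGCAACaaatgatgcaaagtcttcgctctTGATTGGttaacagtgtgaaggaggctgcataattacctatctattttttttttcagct

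The table held no entry for H2-Ab1, Cd74 or Ciita. TGATTGG began 45 to 63 bases before the annotated start in these 5 genes. Both windows listed for H2-DMa held no such pair, and both lie inside its annotated span, not before its first base. Of 32851 windows of the same length, searched on both strands, 5.71% held TGATTGG, 61.2% held GNAAC, and 0.694% held the pair at a spacing of 20 to 60 bases. The cores, the window and the spacing were chosen after the sequences had been seen, and a match describes letters in a window and does not show binding. The remaining members lie elsewhere, Ciita at chr16:10480014-10531064 and Cd74 at chr18:60803849-60812652.

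PS2APP myeloid libraries held 2015535 to 2908222 counts each and non-Tg myeloid libraries 3578249 to 6143018, ranges that did not overlap. Levels are given as CPM, counts scaled to library size, and 3 counts were worth up to 1.49 CPM in a PS2APP myeloid library. The 9 microglia markers summed to 8604 to 10100 CPM in non-Tg and 6546 to 8375 CPM in PS2APP myeloid libraries, without overlap. They summed to at most 249.7 CPM in astrocyte and 141.1 CPM in neuron libraries. In myeloid libraries all 9 had a negative estimate, PS2APP over non-Tg, and 2 had an edgeR adjusted p under 0.05. Oligodendrocyte markers summed to 656.6 to 1045 CPM (non-Tg) and 1126 to 1841 CPM (PS2APP) there. Neuron markers had means of 386.3 and 661.1 CPM, and astrocyte markers 780.8 and 791.1 CPM. The near-equal astrocyte sums hold opposite moves, as 7 of 10 astrocyte markers had a negative estimate (median −0.42). Gfap rose (log2 fold change 2.77 ± 0.25, edgeR adjusted p = 5.03e-07) and Aqp4 fell (−1.64 ± 0.41, edgeR adjusted p = 0.0314). The part of these shifts in the class II values was not tested. In bulk libraries, fewer class II positive cells and less class II RNA per cell cannot be told apart.

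In the myeloid libraries Cd74 had the highest group means of the 9 genes per unit of length. In non-Tg replicate 3 H2-Ab1 was slightly higher (28.94 RPKM, against 28.19 RPKM for Cd74). On the deposited RPKM scale, which divides by gene length, Cd74 stood at 34.6 ± 12.9 in non-Tg and 27.3 ± 13.8 in PS2APP myeloid libraries (mean ± SD, n = 5 each, as for the values that follow). H2-Ab1, the I-A beta chain, stood at 22.0 ± 9.01 and 12.1 ± 4.90 RPKM. H2-Aa, its alpha partner, stood at 13.1 ± 6.28 and 9.10 ± 8.87 RPKM. H2-Eb1, the I-E beta chain, stood at 9.63 ± 3.72 and 8.0 ± 4.77 RPKM. The genes that edit peptides were lower. H2-Oa and H2-Ob, the alpha and beta chains of H2-DO, stood at 5.38 ± 2.99 and 2.11 ± 0.894 RPKM in non-Tg libraries. H2-DMa and H2-DMb1, the chains of H2-DM, stood at 4.86 ± 1.84 and 4.51 ± 1.37 RPKM. Ciita was the lowest, at 0.691 ± 0.268 RPKM. In non-Tg libraries the order ran from Cd74 down through H2-Ab1, H2-Aa, H2-Eb1, H2-Oa, H2-DMa, H2-DMb1 and H2-Ob to Ciita. The ranges of neighbours in this order overlapped, except that the highest H2-Ob value (3.28 RPKM) lay below the lowest H2-DMb1 value (3.47 RPKM). In PS2APP libraries the means kept this order but for H2-DMa and H2-DMb1, which changed places.

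**Figure D1:**
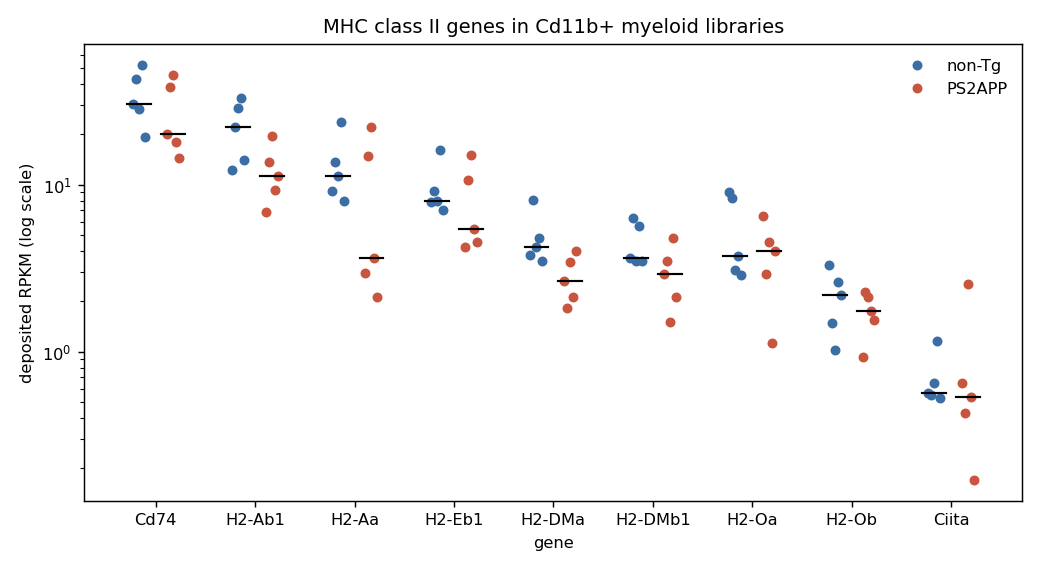
Deposited RPKM (log axis) of the 9 class II genes in each non-Tg (blue) and PS2APP (red) myeloid library, 5 points a group, with the median as a black line. Cd74 spans 14.4 to 52.2 RPKM and Ciita 0.17 to 2.54 RPKM, and the groups overlap for every gene.

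Partners of a pair did not always move together. Within non-Tg libraries H2-Aa lay at 0.387 to 0.749 times the RPKM of H2-Ab1, and within PS2APP libraries at 0.188 to 1.12 times. Cd74 stood at 2.21 to 3.33 times H2-Aa in non-Tg libraries and at 2.07 to 6.85 times in PS2APP libraries, where replicates 1, 4 and 5 gave the high ratios and had little H2-Aa. H2-DMb1 has a near copy, H2-DMb2, whose longest open reading frame was 95.9% identical over 786 bases in GENCODE M21. Of the 50-base stretches of H2-DMb1, 47.9% were found unchanged in H2-DMb2. Reads were counted where they aligned uniquely, so H2-DMb1 values are uncertain. Myeloid counts of H2-DMb2 came to 5.23 ± 2.10 CPM (non-Tg) and 5.07 ± 2.89 CPM (PS2APP).

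Of the 9 genes, 8 were far higher in myeloid than in astrocyte or neuron libraries, and Ciita was not. Summed over the 5 non-Tg libraries of each sort, H2-Ab1 had 2381 reads in myeloid, 3 in astrocyte and 13 in neuron libraries. Cd74 had 4542, 34 and 50 reads, and H2-Aa had 1479, 10 and 13. H2-Oa had 490 reads in myeloid libraries and none in astrocyte libraries, a difference of at least 163-fold with the astrocyte group taken at 3 counts over the group. In the edgeR fit of all 30 libraries, 8 of 9 class II genes were higher in non-Tg myeloid than in non-Tg astrocyte libraries, against 26.8% of all 18101 genes tested (57.4% differed in either direction). The same 8 were higher than in non-Tg neuron libraries, against 34.1% of all genes (67.9% in either direction). Tested alone, 2 of the 9 passed the low count filter in astrocyte libraries and 3 in neuron libraries. The rest entered this fit through sorts where they are higher, so a higher myeloid level was in part fixed by the filter. The shares of all genes are therefore not an even background for these members. Against astrocyte libraries the log2 difference was 6.89 ± 0.50 (SE) for Cd74, 7.07 ± 0.76 for H2-Aa, 9.29 ± 0.80 for H2-Ab1 and 6.05 ± 0.44 for H2-Eb1, with edgeR adjusted p of 1.47e-14, 3.58e-10, 1.58e-12 and 1.63e-14. H2-DMa differed least of the 8, by 4.70 ± 0.50 from astrocyte and 2.70 ± 0.43 from neuron libraries (edgeR adjusted p = 3.99e-10 and 9.98e-07). It was the member most visible in neuron libraries apart from Ciita, with 4.97 ± 1.37 CPM (non-Tg) and 6.77 ± 2.72 CPM (PS2APP). Its annotated span overlaps Brd2 on the other strand, a gene with 81.7 ± 5.86 CPM in neurons of non-Tg mice. Whether the library kit keeps strand is not given in the sources used here, so reads of the overlap cannot be assigned.

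Ciita was not called different between non-Tg myeloid libraries and the other non-Tg sorts. On the scale of all 30 libraries it stood at 16.8 ± 6.80 CPM in non-Tg myeloid, 16.2 ± 3.09 CPM in non-Tg astrocyte and 12.1 ± 1.52 CPM in non-Tg neuron libraries. In PS2APP libraries the values were 19.5 ± 22.3, 20.0 ± 6.71 and 14.6 ± 2.39 CPM. The log2 difference between non-Tg myeloid and astrocyte libraries was 0.05 ± 0.39 (edgeR adjusted p = 0.923), and its sign turned with the scaling, to −0.12 with RLE factors, which moved the median of all genes by −0.17. Against neuron libraries it was 0.48 ± 0.39 (edgeR adjusted p = 0.28), and the intervals do not show that the levels were alike. The later part of Ciita overlaps Dexi on the other strand, a gene at 12.03 ± 3.36 CPM in non-Tg myeloid, 6.81 ± 2.49 CPM in non-Tg astrocyte and 5.18 ± 0.745 CPM in non-Tg neuron libraries. How many Ciita reads come from that overlap was not tested.

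**Figure D2:**
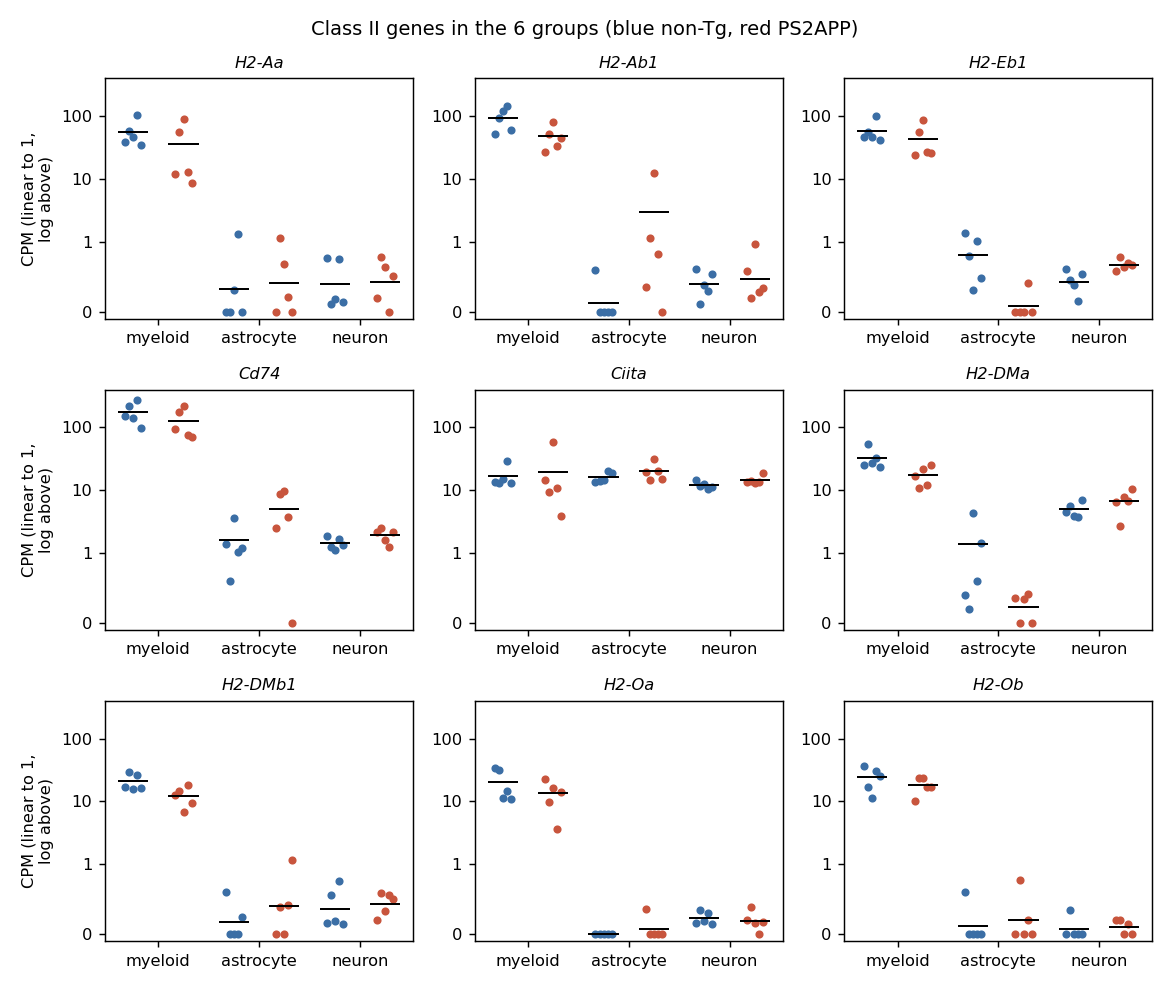
CPM of each class II gene in every library of the 6 groups (blue non-Tg, red PS2APP, black line the group mean; axis linear from 0 to 1 and logarithmic above). All members but Ciita have higher means in myeloid libraries than elsewhere, where the highest are H2-DMa in neurons (means 4.97 and 6.77 CPM) and Cd74 and H2-Ab1 in PS2APP astrocytes (up to 9.83 and 12.5 CPM), while Ciita lies between 3.87 and 58.8 CPM in all 6 groups.

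None of the 9 genes passed the threshold between PS2APP and non-Tg myeloid libraries, and 8 of 9 had a lower estimate in PS2APP. In edgeR's quasi-likelihood test 0 of 9 had an adjusted p under 0.05, against 3.36% of all 12274 genes tested. All 9 passed the filter on low counts. At an unadjusted p under 0.05, 2 of 9 passed in edgeR (H2-Ab1 and H2-DMa), against 19.3% of all genes. The median log2 fold change, PS2APP over non-Tg, was −0.51 over the 9 genes and −0.0021 over all genes tested, of which 50.2% lay below 0. The groups did not overlap for 0 of 9, against 4.8% of all genes.

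The peptide-binding chains varied widely within each genotype. Non-Tg replicates 1 to 5 had 49.8, 87.5, 117, 135 and 57.8 CPM of H2-Ab1, and PS2APP replicates 1 to 5 had 26.6, 53.4, 78.3, 35.7 and 43.9 CPM. All but 2 PS2APP libraries lay below every non-Tg library, and replicates 2 and 3 lay inside the non-Tg range. The log2 fold change of H2-Ab1 was −0.91 ± 0.28 (edgeR adjusted p = 0.0722), and over 17 alternatives the adjusted p lay between 0.00136 and 0.338. It passed without the low count filter (adjusted p = 0.00136), in DESeq2 (adjusted p = 0.0382), without non-Tg replicate 1 (edgeR adjusted p = 0.0289) and without PS2APP replicate 3 (edgeR adjusted p = 0.0424).

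Levels of H2-Aa were 37.2, 53.5, 45.1, 97.0 and 32.6 CPM in the non-Tg replicates and 11.6, 58.1, 87.4, 14.0 and 8.25 CPM in the PS2APP replicates, in the same order. Of the PS2APP libraries 3 lay below every non-Tg library, and replicates 2 and 3 lay above all non-Tg libraries but replicate 4. The log2 fold change was −0.57 ± 0.46 (edgeR adjusted p = 0.53), and it ran from −1.23 without PS2APP replicate 3 to −0.23 without non-Tg replicate 4. H2-Eb1 showed the same libraries high and low, at 44.9, 50.8, 45.1, 92.8 and 40.3 CPM (non-Tg) and 23.2, 58.7, 84.4, 29.3 and 24.7 CPM (PS2APP). Its log2 fold change was −0.32 ± 0.32 (edgeR adjusted p = 0.629), between −0.70 and −0.04 with 1 library left out.

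For Cd74 the non-Tg replicates gave 147, 200.0, 135, 254 and 94.2 CPM, and the PS2APP replicates 92.6, 179, 215, 82.1 and 67.1 CPM. Replicate 4 was the highest of the non-Tg libraries for H2-Ab1, H2-Aa, H2-Eb1 and Cd74 alike, and replicate 3 the highest of the PS2APP libraries. The log2 fold change of Cd74 was −0.39 ± 0.28 (edgeR adjusted p = 0.472).

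Relative to their means, the H2-DM chains were less spread than H2-Aa and H2-Eb1 in PS2APP libraries. H2-DMa had 24.2, 49.4, 26.5, 30.6 and 22.5 CPM in non-Tg replicates, against 16.2, 11.1, 21.3, 12.7 and 24.4 CPM in PS2APP replicates. Only PS2APP replicate 5 reached into the non-Tg range. The log2 fold change was −0.83 ± 0.31 (edgeR adjusted p = 0.143), and −0.30 when the share of mitochondrial counts entered the fit as a covariate. That share was 5.46% to 12.7% in non-Tg and 9.46% to 16.7% in PS2APP myeloid libraries. H2-DMb1 ranged from 15.1 to 26.9 CPM (non-Tg) and from 6.46 to 19.7 CPM (PS2APP), and its log2 fold change was −0.68 ± 0.36 (edgeR adjusted p = 0.3).

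For the H2-DO chains the groups overlapped over most of their range. H2-Oa overlaps BC051537 on the other strand, a gene with 9.55 ± 4.89 CPM (non-Tg) and 7.51 ± 4.497 CPM (PS2APP) in myeloid libraries. H2-Oa ranged from 10.3 to 32.3 CPM (non-Tg) and from 3.82 to 22.4 CPM (PS2APP), and its log2 fold change was −0.51 ± 0.42 (edgeR adjusted p = 0.537). The same covariate turned its sign, to 0.17. H2-Ob ranged from 10.9 to 35.5 CPM (non-Tg) and from 9.64 to 23.8 CPM (PS2APP), and the log2 fold change was −0.35 ± 0.35 (edgeR adjusted p = 0.626).

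Ciita was the 1 member with a positive estimate, and that estimate rested on 1 library. Its levels were 13.1, 12.2, 14.8, 26.9 and 12.2 CPM in the non-Tg replicates and 14.3, 9.51, 57.0, 11.5 and 3.75 CPM in the PS2APP replicates. The log2 fold change was 0.29 ± 0.49 (edgeR adjusted p = 0.795), and without PS2APP replicate 3 it was −0.71.

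**Figure D3:**
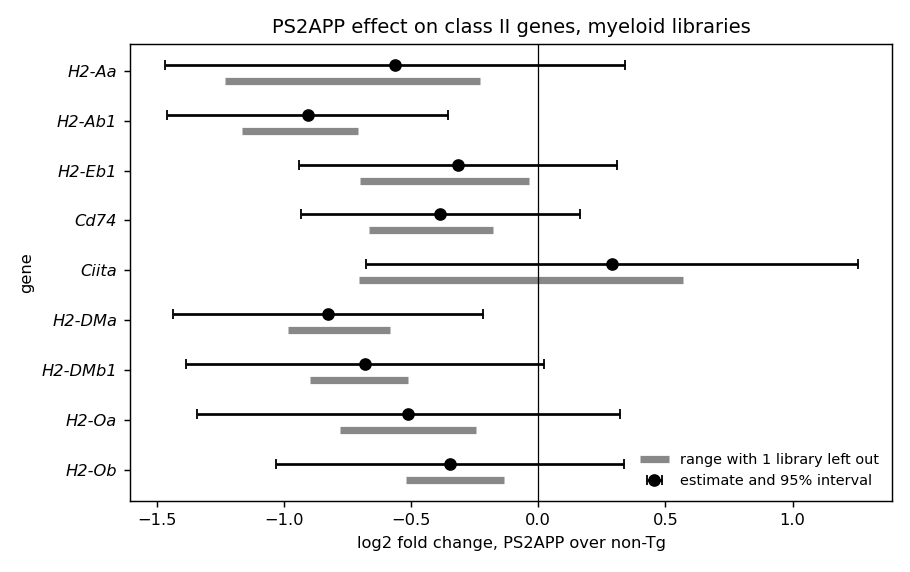
Log2 fold change, PS2APP over non-Tg, of the 9 class II genes in myeloid libraries. The point is the edgeR estimate, with a 95% interval from its SE and a normal multiplier, before adjustment. The grey bar is the range of the estimate with each library left out in turn. H2-Ab1 (−0.91) and H2-DMa (−0.83) have intervals below 0, and the grey bar of Ciita runs from −0.71 to 0.57.

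Across the 10 myeloid libraries, H2-Aa, H2-Eb1 and Cd74 varied together, and H2-Ab1 had lower r with them. On log2 CPM, H2-Aa and H2-Eb1 had Pearson r = 0.969 and Spearman rho = 0.988 (n = 10, permutation adjusted p = 0.00036 for both over 36 pairs, from the smallest p that 100000 permutations can give). H2-Aa and Cd74 had r = 0.944 and rho = 0.964 (permutation adjusted p = 0.00054 and 0.0009), and H2-Eb1 and Cd74 had r = 0.929 and rho = 0.939 (permutation adjusted p = 0.00084 and 0.00252). Leaving out the 2 libraries farthest from the median of the first gene, r was 0.961, 0.933 and 0.929 over 8 libraries. With each genotype centred on its own mean, r was 0.973, 0.939 and 0.919, so these relations also held within genotypes. The 3 pairs with H2-Ab1 had r of 0.726 to 0.802, with permutation adjusted p of 0.0525 to 0.0788, and of 0.689 to 0.79 with genotypes centred. No difference between correlations was tested. The points share their libraries and the CPM denominator of each.

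The other 30 pairs had r between −0.13 and 0.717, and none had a permutation adjusted p under 0.05. Ciita had r = 0.717 with H2-Eb1 and 0.704 with H2-Aa, but rho was 0.455 and 0.527 (n = 10, permutation adjusted p = 0.0788 for both r and 0.461 for both rho). With genotypes centred, r of Ciita was 0.725 with H2-Eb1, 0.738 with H2-Aa and 0.693 with Cd74, within the range of the H2-Ab1 pairs. PS2APP replicate 3 was the highest library for Ciita, and its neighbour in chain level, PS2APP replicate 2, had 9.51 CPM of Ciita, below every non-Tg library.

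**Figure D4:**
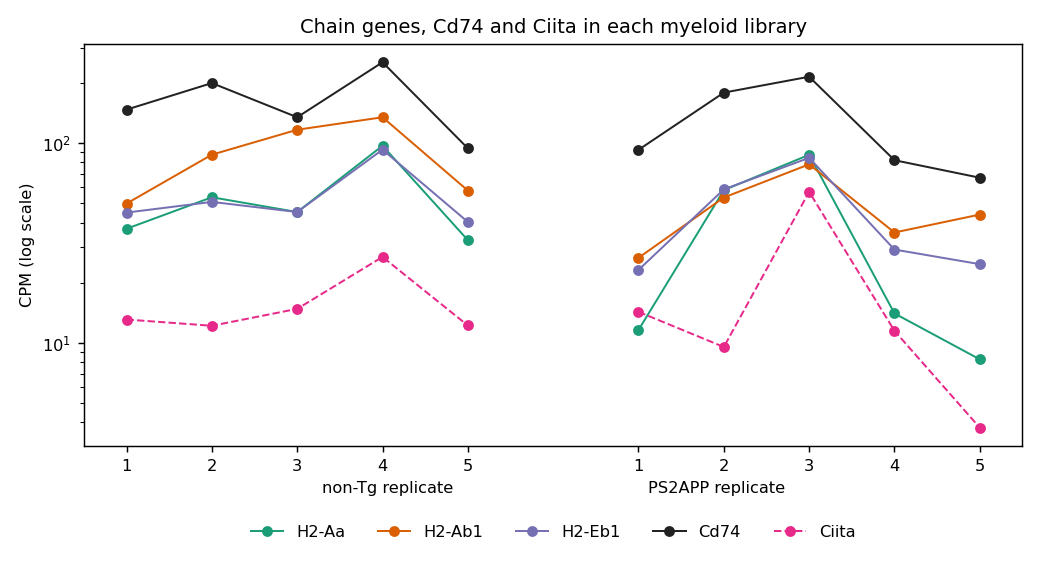
CPM (log axis) of H2-Aa, H2-Ab1, H2-Eb1, Cd74 (solid lines) and Ciita (dashed) in each of the 10 myeloid libraries; lines join the libraries of a genotype by number and carry no order. Non-Tg replicate 4 and PS2APP replicates 2 and 3 are high for H2-Aa, H2-Eb1 and Cd74, and Ciita peaks at 57.0 CPM in PS2APP replicate 3.

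Genes listed as markers of other myeloid and lymphoid cells were counted in the same libraries. The sum of H2-Aa, H2-Ab1, H2-Eb1 and Cd74, a set formed after their values had been seen, was 279, 391.9, 341.9, 578.8 and 224.9 CPM in non-Tg and 153.9, 349.3, 465.3, 161.1 and 143.9 CPM in PS2APP replicates 1 to 5. The 10 border macrophage markers summed to 95.9, 46.5, 93.1, 212.6 and 75.6 CPM and to 79.1, 99.3, 91.2, 56.0 and 48.0 CPM in the same order. Non-Tg replicate 4 was the highest non-Tg library on both sums, and PS2APP replicates 2 and 3 were the highest PS2APP libraries on both. Non-Tg replicate 2 was the second highest non-Tg library on the chain sum and the lowest of all 10 libraries on the border macrophage sum. Of the 10 border macrophage markers, 5 were tested and 0 passed in edgeR. The 10 dendritic cell markers summed to 63.5 to 94.6 CPM in non-Tg and 50.3 to 75.0 CPM in PS2APP libraries, and 0 of 5 tested passed. The 7 B cell markers counted summed to 31.3 to 49.9 CPM and 27.5 to 52.5 CPM, with means of 37.2 and 42.3 CPM, and 0 of 2 tested passed. Of these 7, 3 were at 0 in all PS2APP myeloid libraries, and none was at 0 in all non-Tg ones. The 8 monocyte markers summed to 49.3 to 82.3 CPM and 29.9 to 53.4 CPM, and 1 of 5 tested passed: Ccr2, a chemokine receptor of blood monocytes, fell by 2.16 ± 0.41 on the log2 scale (edgeR adjusted p = 0.00673), and by 2.12 ± 0.55 with the mitochondrial covariate (edgeR adjusted p = 0.168). The 8 neutrophil markers summed to 96.4 to 1262 CPM and 26.2 to 892 CPM. On the scale of each sort, dendritic cell markers summed to 31.3 to 75.05 CPM in astrocyte and 74.2 to 103.3 CPM in neuron libraries. Monocyte markers summed to 114.8 to 242.3 CPM and 174.6 to 233.4 CPM there, so neither sum marks those cells alone. Border macrophage markers reached at most 20.7 and 13.6 CPM there, B cell markers 17.8 and 9.37 CPM, and neutrophil markers 6.38 and 8.24 CPM. The part of these cells in the class II values was not tested.

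In astrocyte and neuron libraries too few class II reads were counted for most members to be tested. In astrocyte libraries Cd74 and Ciita passed the filter on low counts, and 0 of these 2 were called in edgeR or DESeq2, against 0.185% of all genes tested in edgeR; at an unadjusted p under 0.05 it was 1 (Cd74), against 17.2%. Cd74 had 7, 3, 12, 7 and 5 reads in non-Tg and 7, 23, 29, 18 and 0 reads in PS2APP astrocyte replicates 1 to 5. The log2 fold change was 1.70 ± 0.75 (edgeR adjusted p = 0.255), and the libraries of the groups overlapped. It was 0.53 ± 0.96 with the other-cell markers as a covariate and −0.56 ± 1.44 with the mitochondrial share, neither past the threshold. That share was 2.41% to 4.74% in non-Tg and 5.60% to 8.60% in PS2APP astrocyte libraries, without overlap. The fit with it can therefore hardly tell the share from genotype, and its sign is not informative. H2-Ab1 had 3, 0, 0, 0 and 0 reads in non-Tg and 1, 3, 37, 4 and 0 reads in PS2APP astrocyte libraries, so 1 library held most of them. It failed the filter on low counts there and entered the fit of all 30 libraries through its myeloid counts. In that fit its PS2APP effect in astrocytes was 4.29 ± 0.98 (edgeR adjusted p = 0.0166). With so few reads, most of them in 1 library, this value does not stand as a call for astrocytes. H2-Eb1 went the other way, with 7, 4, 1, 7 and 2 reads in non-Tg and 0, 0, 0, 2 and 0 in PS2APP. Those libraries also differed in microglia markers, 9 genes that summed to 138.9 to 172.8 CPM in non-Tg and 198.4 to 249.7 CPM in PS2APP astrocyte libraries, with Csf1r and Fcrls past the threshold (log2 fold changes 1.496 ± 0.25 and 2.98 ± 0.56, edgeR adjusted p = 0.0148 and 0.0313). The part of microglial RNA in these counts was not tested.

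In neuron libraries Cd74, Ciita and H2-DMa were tested, and 0 of 3 were called in edgeR, against 0.00623% of all genes. DESeq2 called neither Ciita nor H2-DMa and gave Cd74 no adjusted p. In edgeR at an unadjusted p under 0.05 it was also 0, against 22.9%. The log2 fold changes were 0.39 ± 0.28 for Cd74, 0.26 ± 0.15 for Ciita and 0.42 ± 0.29 for H2-DMa (edgeR adjusted p = 0.387, 0.307 and 0.365).

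The difference of the PS2APP effect between sorts was tested in 1 edgeR fit of all 30 libraries. Of the 9 members, 2 passed the low count filter in astrocyte libraries alone, and the others entered this fit through sorts where they are higher. Between myeloid and astrocyte libraries 1 of 9 members passed, against 0.757% of all 18101 genes, which is not an even background. It was H2-Ab1, with a log2 difference of −5.28 ± 1.08 (edgeR adjusted p = 0.0116), which was −3.05 (edgeR adjusted p = 0.185) without PS2APP astrocyte replicate 3, the library with 37 of the 45 PS2APP astrocyte reads. Cd74 followed with −2.21 ± 0.64 (edgeR adjusted p = 0.0917), and −2.50 (edgeR adjusted p = 0.0234) without PS2APP astrocyte replicate 5, which had 0 Cd74 reads. With each library left out in turn it lay between −2.64 and −1.79 (edgeR adjusted p up to 0.216). H2-Eb1 had the opposite sign, at 2.15 ± 0.91 (edgeR adjusted p = 0.291). These genes were named after their values had been seen. Between myeloid and neuron libraries 0 of 9 passed, against 0.105% of all genes, and between astrocyte and neuron libraries 0 of 9, against 0.0331%. DESeq2 called no member in either. At an unadjusted p under 0.05 edgeR gave 1 of 9 (H2-DMa), against 9.65% of all genes, and 3 of 9 (H2-Ab1, H2-Eb1 and H2-DMa), against 4.97%. Tested alone, H2-Ab1 and H2-Eb1 failed the low count filter in both astrocyte and neuron libraries, and H2-DMa failed it in astrocyte libraries. The 3 of 9 is therefore not evidence about the members.

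Other genes of the route were followed in the myeloid libraries. Of 8 transcription factors that act on class II promoters, Ciita among them, 0 passed, and the smallest p was that of Rfxank, a subunit of the RFX complex on the X box (0.41 ± 0.26, edgeR adjusted p = 0.414). Of 8 interferon gamma signalling genes tested, 1 fell and none rose. It was Ifngr1, the ligand-binding chain of the interferon gamma receptor, at 133, 213.7, 122.6, 186 and 170.0 CPM in non-Tg and 111, 113, 87.4, 109 and 104 CPM in PS2APP replicates. The groups did not overlap, and the log2 fold change was −0.66 ± 0.17 (edgeR adjusted p = 0.0377). The call was lost under 11 of 17 alternatives (edgeR adjusted p = 0.607 with the mitochondrial share as a covariate), among them leaving out non-Tg replicate 2, 4 or 5 or PS2APP replicate 1, 3, 4 or 5, where the log2 fold change lay between −0.68 and −0.55 (edgeR adjusted p from 0.0558 to 0.116).

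Of 7 proteases and reductases that prepare peptides in endosomes 0 passed, and the smallest p was that of Lgmn, an asparagine-specific protease (−0.49 ± 0.16, edgeR adjusted p = 0.0916). Of the 7 estimates 4 were positive, with a median of 0.14, among them those of the cathepsins Ctsl (0.75 ± 0.26, edgeR adjusted p = 0.105) and Ctss (0.67 ± 0.24, edgeR adjusted p = 0.127), both named after their values had been seen. Of 4 costimulatory and checkpoint ligands tested 0 passed. Cd80, which binds CD28 on T cells, had the smallest p (−0.93 ± 0.30, edgeR adjusted p = 0.0778). Of 5 genes that control class II turnover 0 passed, and the smallest p was that of Sppl2a, the protease that clears the Cd74 stub from the membrane (−0.69 ± 0.23, edgeR adjusted p = 0.0999). The ubiquitin ligase Marchf1, which removes class II from the surface, was at −0.01 ± 0.19.

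Among MHC class I genes, which serve CD8+ T cells, most estimates were above 0. Of 11 tested 1 rose and none fell, against 3.36% of all genes called in either direction. Of the 11 estimates 8 were positive, with a median of 0.35, while 50.2% of all genes had an estimate below 0. Nlrc5, the class I transactivator and a relative of Ciita, had 46.3, 72.3, 45.1, 27.2 and 44.4 CPM in the non-Tg replicates and 99.5, 100.9, 365.7, 189 and 104 CPM in the PS2APP replicates. Every PS2APP library lay above every non-Tg library, and the log2 fold change was 1.87 ± 0.31 (edgeR adjusted p = 0.00177). It was 1.39 without PS2APP replicate 3 (edgeR adjusted p = 0.00843), and the call was lost with the mitochondrial share as a covariate (1.73, edgeR adjusted p = 0.173). The difference in direction between class I and class II genes was not tested. PS2APP replicate 3, the highest library for Ciita, was also the highest for Nlrc5.

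By a rule on likeness, the log2 CPM of each member was scaled to the same mean and SD, and the members were averaged. Out of 8509 candidates with a full symbol, 8 genes outside the class II set followed this average most closely over the 10 myeloid libraries. They were Vps54 (r = 0.904), Fto (0.902), Mapk9 (0.892), Ulk2 (0.886), Srl (0.885), Rictor (0.882), Ptprj (0.88) and Aldh3a2 (0.872). These r describe 10 libraries that share their CPM denominators, and they were the highest of many. Of the 8, Ulk2 passed the threshold between genotypes (log2 fold change −0.60 ± 0.17, edgeR adjusted p = 0.0483), and 12 of 17 alternatives lost that call (adjusted p from 0.0164 to 0.388 over all 17). Among these were 8 of 10 left-out libraries, all but non-Tg replicate 1 and PS2APP replicate 3, with log2 fold changes of −0.64 to −0.51.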

How the data were processed

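RNA of 30 libraries of sorted brain cells was analysed from 1 deposited file a library. The deposited count column gives uniquely aligned reads per gene model, per the file headers. A second deposited column gives RPKM adjusted by size factors, per the file headers. GSNAP and GRCm38 were used, per the submitters' processing notes. Not given in the sources used here are their versions, the gene annotation and the strand setting.

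Gene identifiers were matched to symbols in the GRCm38.p6 RefSeq table (31049 of 36528, with 96.7% of counts). The labels' genotype and cell type fields set the groups. The labels number no replicates, so replicate numbers follow accession order, name libraries only and pair none. The 2 most similar libraries of any group still differed beyond sampling noise (chi-square over degrees of freedom 3.71). The members, the lists and the rule for named genes were chosen with earlier results of these data known.

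Each sort was tested alone by edgeR's quasi-likelihood test (edgeR 4.0.16, R 4.3.3), after filterByExpr and TMM scaling, with p-values adjusted by Benjamini-Hochberg over all genes tested and a threshold of 0.05. Differences between sorts came from 1 fit of all libraries. SE is the log2 fold change over the square root of F. CPM use the TMM factors of a sort, or of all libraries where single genes are compared between sorts. Summed markers use the factors of each sort, also where sorts are compared. RPKM were used for levels between genes. Fits were tested on simulated data. Correlations used log2 CPM with a prior count of 2 and 100000 permutations, two-sided. Alternatives were RLE factors, no filter, DESeq2 1.42.0, covariates (other-cell markers, mitochondrial share, Xist), the joint fit and each library left out. Named from each list were the genes past the threshold, and otherwise the one of smallest p; likeness took the 8 genes of highest r with a mean log2 CPM of at least 3. The 95% intervals use the SE and a normal multiplier, so they include the spread between libraries. They can be narrower than the F test implies. The limit of 3 counts covers counting error only. H2-Ea is not analysed here. Some single genes of the lists are not reported here.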

Additional observations from a re-analysis of the deposited data

Results flagged for a closer look

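In 32 sets of 5 libraries, 1 for each gene and group with enough reads, the highest or lowest library was compared with the rest by Dixon's ratio, and 6 stood apart. Chance sets apart about 1 in 20 such groups. Ciita did so 3 times: PS2APP myeloid replicate 3 stood at 57.0 CPM with the next library at 14.3 CPM, non-Tg myeloid replicate 4 at 26.9 CPM with the next at 14.8 CPM, and PS2APP neuron replicate 5 at 22.3 CPM with the next at 16.7 CPM. H2-Eb1 stood at 92.8 CPM in non-Tg myeloid replicate 4, with the next library at 50.8 CPM. H2-Ab1 stood at 11.2 CPM in PS2APP astrocyte replicate 3, with the next at 1.0 CPM, and Cd74 at 3.21 CPM in non-Tg astrocyte replicate 3, with the next at 1.22 CPM.

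The PS2APP effect on H2-Ab1 differed between myeloid and astrocyte libraries by −5.28 on the log2 scale in edgeR's test of the difference, a value that rests on the same astrocyte replicate 3.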

How the results depend on the processing

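In myeloid libraries no member passed in the main fit, 1 (H2-Ab1) passed without the low count filter and 1 (H2-Ab1) in DESeq2, and 0 to 1 with a library left out. All genes called there numbered 412, and 939 without the filter, 899 in DESeq2, 26 with the mitochondrial share as a covariate, 798 in the joint fit, and 105 to 652 with a library left out. In astrocyte libraries 1 member (H2-Ab1) passed without the filter and 1 (H2-Ab1) in the joint fit. All genes called went from 26 to 514 without the filter, 327 in DESeq2, 3 with the other-cell covariate, 2 with the mitochondrial share, 7 with Xist, 295 in the joint fit and 8 to 125 with a library left out. In neuron libraries they went from 1 to 15 without the filter, 153 in DESeq2, 5138 with the other-cell covariate, 5 in the joint fit and 1 to 11 with a library left out. For the difference between myeloid and astrocyte libraries 137 became 213 without the filter, with 2 members (H2-Ab1 and Cd74), and 382 in DESeq2. With a library left out there were 0 to 2 members. RLE factors moved the median of all genes in this difference by 0.13 on the log2 scale, and 61 genes were then positive and 55 negative, against 53 and 84. In the other differences DESeq2 called 85 (myeloid and neuron) and 17 (astrocyte and neuron) against 19 and 6, and leaving out a library gave 12 to 27 and 1 to 11. The cause of these shifts was not tested.

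Signs that turned were those of estimates that had not passed the threshold in the main fit. In myeloid libraries these were Ciita without PS2APP replicate 3 (−0.71, and 0.57 at most with another library left out) and H2-Oa with the mitochondrial share (0.17). In astrocyte libraries they were Ciita with the other-cell covariate (−0.20) and the mitochondrial share (−0.062), and Cd74 with the mitochondrial share (−0.56). The mitochondrial share did not overlap between genotypes there, so fits with it can hardly tell the share from genotype. Ciita in non-Tg myeloid over astrocyte libraries turned with RLE factors (−0.12), without the filter (−0.0098), in DESeq2 (−0.12), and with 1 of 4 libraries left out (−0.24 to −0.05; −0.24 to 0.13 over all). The other 8 members kept their direction and call in that comparison and against neurons under every alternative run, with RLE factors moving the median of all genes by −0.17 and −0.23. No paired analysis was possible because the labels number no replicates and do not tie libraries to animals. Outside myeloid libraries most members had few reads, although the smallest library totals were those of PS2APP myeloid libraries, so small differences there were not detectable at these depths.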
